A study of Mus musculus with 6 samples.

Results

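The genes described here encode the ligands, receptors, Smad proteins, latent binding proteins and antagonists of TGF-beta, activin and BMP signalling. They were taken by symbol, as every row of the deposited table named Tgfb1 to Tgfb3, Tgfbr1 to Tgfbr3, Bmp, Bmpr, Gdf, Inha, Inhba, Inhbb, Acvr, Smad, Ltbp, Fst, Fstl, Grem, Mstn or Nog, with a number where the family is numbered. The rule found 60 of the 25572 genes in the table. RNA came from hind limb skeletal muscle 3 days after surgery for hind limb ischaemia, from 3 mice lacking histidine decarboxylase (HDCKO, Hdc-/-) and 3 wild-type mice (WT), and each mouse gave 1 library. Every sample was labelled as operated, and unoperated muscle was not analysed here, so every level is set against injured WT muscle. The strain, age and sex of the mice, the muscle and leg taken, and the exons removed from Hdc are not stated by the labels. Whether Hdc was removed from all cells or from some is not stated either.

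Ligands of this family are secreted as dimers and bind a pair of type II and a pair of type I receptor kinases. TGF-beta, activin and myostatin signal mainly through Smad2 and Smad3, and BMPs through Smad1, Smad5 and Smad9; both branches share Smad4, while Smad6 and Smad7 restrain them. TGF-beta leaves the cell in a latent complex held by latent TGF-beta binding proteins (LTBPs), and follistatin, noggin and gremlins trap ligands outside the cell. In skeletal muscle the family is best known for myostatin, a fibre-derived brake on muscle mass, for activins and GDFs that act on the same receptors, for BMPs that favour muscle mass, and for TGF-beta in inflammation and fibrosis after injury.

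The values are FPKM, fragment counts scaled to gene length and to the size of the library, so levels may be set side by side between genes. Judged from the steps between low values, libraries held between 29500000 and 37600000 fragments. Values per library are given in the order of replicates 1, 2 and 3. Correlations of log2 values over the genes tested were 0.975 to 0.986 among WT libraries, 0.887 to 0.963 among HDCKO libraries and 0.609 to 0.826 between groups; HDCKO replicate 3 lay nearest to WT. Hdc, the targeted gene, had 1.22, 2.46 and 2.52 FPKM in HDCKO and 7.49, 7.72 and 8.17 in WT. It fell by 1.74 on the log2 scale (limma adjusted p = 0.0033), so transcripts of the gene were reduced and not lost, and an exact two-sided permutation test gave p = 0.1, the smallest that 3 against 3 allows. Muscle fibre markers, which define the labelled tissue, were present in both groups but far apart: the sum of 12 of them (Acta1, Ckm, Myh4 and others) was 49486 to 91492 FPKM in HDCKO and 424 to 1637 in WT, and all 12 rose. B cell markers were high in HDCKO replicates 2 and 3 and in no other library (0.488, 62.3 and 177 FPKM summed in HDCKO, 0.821 to 1.70 in WT). In whole muscle, fewer cells of a type and less RNA per cell cannot be told apart.

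The comparison asked which of these genes differ between HDCKO and WT muscle after ischaemia. In HDCKO muscle, myostatin, its receptor Acvr2b, the BMP antagonist Nog, Tgfb2, Tgfb3, Smad3 and Ltbp4 were higher, while both activin beta subunits, Tgfb1, Bmp2, the antagonists Fst and Fstl3, Ltbp2 and Smad1 were lower. Of the 60 genes, 44 reached a mean of 0.5 FPKM across libraries and were tested. Fold changes below are differences of log2(FPKM + 0.5), HDCKO minus WT, tested with limma and adjusted over all 13288 genes tested. The 0.5 FPKM added shrinks the changes of genes that are low in 1 group, such as Mstn, Inhba, Acvr2b, Nog and Gdf15. On that scale 10 of the 44 were higher (22.7%, where 17.8% of all genes tested were) and 20 were lower (45.5%, where 42.6% of all genes tested were), so the counts lay near those of all genes, 60.4% of which changed in either direction. The groups did not overlap for 11 genes that were higher in every HDCKO library (21.2% of all genes tested did the same) and for 23 that were lower (51.4% of all genes tested). The median log2 change was -0.46 over the 44 and -0.50 over all genes tested. Mstn, Inhba, Acvr2b, Nog, Gdf15 and Grem1 passed the filter only through the group in which they were higher, so these counts support nothing about the family.

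The scaling between libraries mattered for small changes. With median-of-ratios scaling the median of all genes tested moved from -0.50 to -0.03, and 15 of the 44 genes were higher (34.1%, beside 26.6% of all genes tested) and 16 lower (36.4%, beside 26.1%). Quantile normalization called 15 higher and 17 lower, where 23.6% and 30.3% of all genes tested were called. A log2 change between -0.50 and 0 on the deposited values is therefore below the WT level and above that of a typical gene. Across 15 alternative settings, 20 of the 30 called genes passed in each setting that tested them: Mstn, Nog, Acvr2b, Ltbp4, Tgfb3 and Smad3 were higher, and Inhbb, Inhba, Ltbp2, Fstl1, Fstl3, Bmp1, Bmp2, Fst, Bmp2k, Gdf15, Gdf10, Smad1, Acvrl1 and Smad5 were lower (Gdf15 was not tested with the filter at 1 FPKM). The calls of the other 10 are qualified below where each gene is described.

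**Figure D1:**
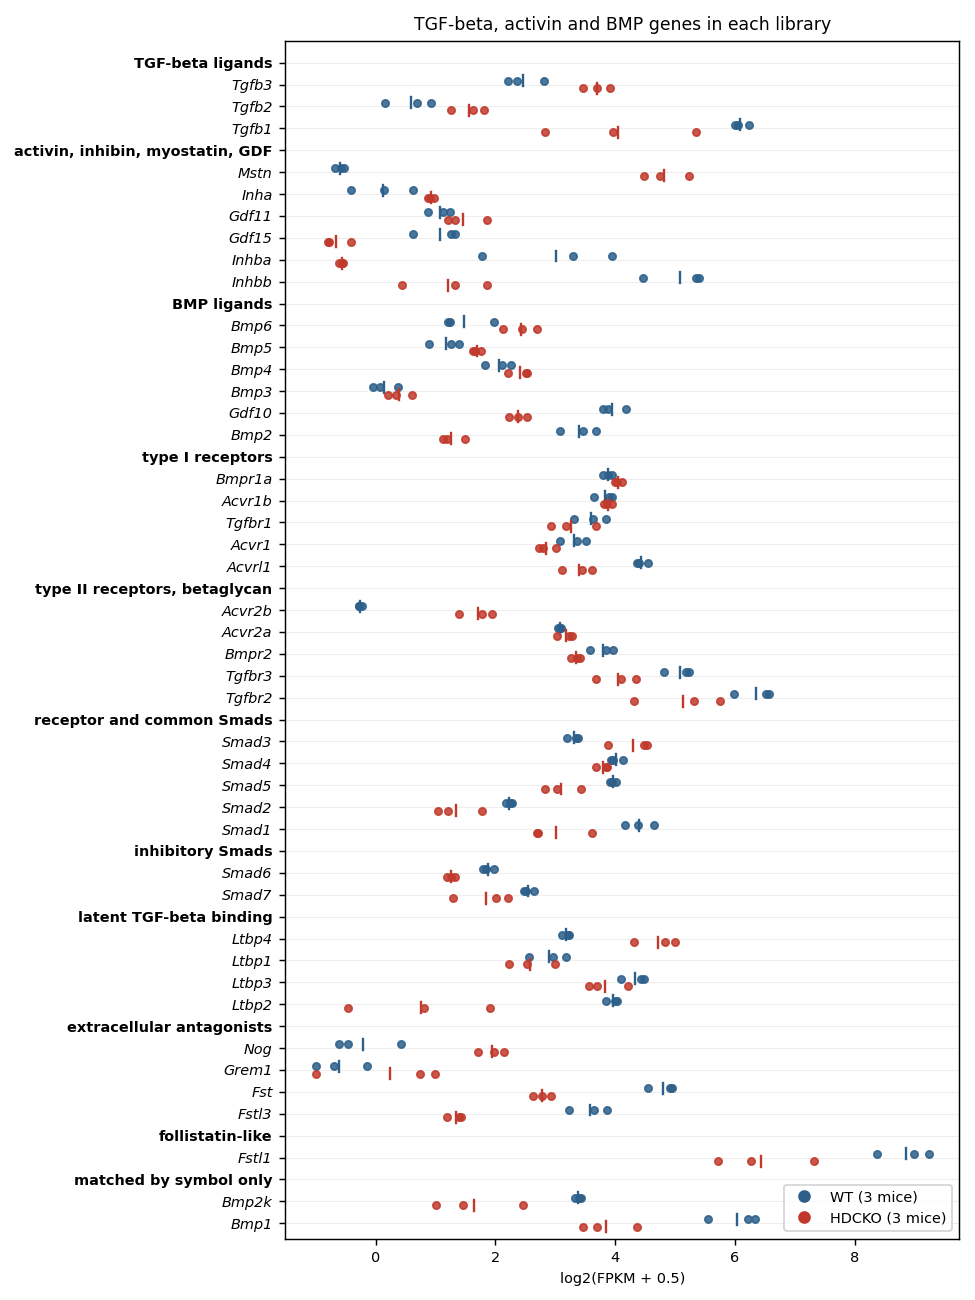
Each dot is 1 library on the log2(FPKM + 0.5) axis, with WT in blue, HDCKO in red and a short bar at the mean of 3 mice, for 43 of the 44 genes tested, grouped by role. The red and blue dots of Mstn, Inhbb, Acvr2b, Ltbp2, Fst and Nog stand apart, while those of Acvr1b, Acvr2a and Tgfbr1 overlap.

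Myostatin, the ligand of the family made by muscle fibres, changed more than any other member. Mstn (chromosome 1, 53100799 to 53107240, plus strand, GRCm39) had 37.2, 21.8 and 26.3 FPKM in HDCKO and 0.127, 0.169 and 0.189 in WT. Every HDCKO library was far above every WT library. At the estimated depths the WT values rest on about 11, 17 and 19 fragments. The means were 28.4 ± 7.94 and 0.162 ± 0.0317 FPKM (SD, n = 3 each), a ratio of 175, and the log2 change was 5.42 (SE 0.22, adjusted p = 1.5e-04), which understates the ratio because 0.5 FPKM was added. Mstn was the 51st of the 60 genes by level in WT and the 3rd in HDCKO, after Fstl1 and Tgfbr2. Per 1000 FPKM of the 12 fibre markers, Mstn had 0.407, 0.283 and 0.532 FPKM in HDCKO and 0.0778, 0.315 and 0.446 in WT. On this scale, chosen after the values were seen, the groups overlapped. The marker sums were 91492, 76947 and 49486 FPKM in HDCKO and 1637, 538 and 424 in WT. Within neither group did they run in the order of Mstn, and their part in its rise was not tested.

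The activin beta subunits moved the other way. Inhbb, which encodes the beta B subunit, had 0.853, 2.00 and 3.11 FPKM in HDCKO and 40.3, 41.7 and 21.7 in WT. The groups were well apart, and the gene fell by 3.87 (SE 0.43, adjusted p = 0.0014). Inhba, which encodes the beta A subunit of activin A, had 0.188, 0.154 and 0.181 FPKM in HDCKO and 14.9, 9.28 and 2.92 in WT. The HDCKO values were tight and low, the WT values spread over a wide range with replicate 3 lowest, and the gene fell by 3.57 (SE 0.53, adjusted p = 0.0038). With a pseudocount of 0.1 the log2 change of Inhba was -4.78, beside -4.16 for Inhbb. Inhbb lies on chromosome 1 (119343193 to 119350021, minus strand) and Inhba on chromosome 13 (16186373 to 16206206, plus strand). Of the summed FPKM of Inhba, Inhbb and Mstn, Mstn held 97.3%, 91.0% and 88.9% in the HDCKO libraries and 0.230%, 0.331% and 0.765% in the WT libraries. The sum itself overlapped between groups (23.9 to 38.3 FPKM in HDCKO and 24.8 to 55.3 in WT).

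The 250 bases before the start sites of these 3 genes are shown because Mstn rose most and Inhbb and Inhba fell most of the 60 genes. They were read from GRCm39 at the canonical transcript start in GENCODE M39, 5′ to 3′ on the gene's own strand, at chr1:53100549-53100798 (plus strand), chr1:119350022-119350271 (minus strand) and chr13:16188733-16188982 (plus strand). Capitals mark matches on either strand to the E-box CANNTG (bound by muscle bHLH factors among others), the AP-1 motif TGANTCA, the cAMP response element TGACGTCA and the TATA box TATAAA.
Mstn: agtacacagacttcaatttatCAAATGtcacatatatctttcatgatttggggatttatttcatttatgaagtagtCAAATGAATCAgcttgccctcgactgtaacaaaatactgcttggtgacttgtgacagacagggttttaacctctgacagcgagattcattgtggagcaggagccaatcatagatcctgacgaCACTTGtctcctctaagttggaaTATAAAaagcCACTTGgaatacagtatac
Inhbb: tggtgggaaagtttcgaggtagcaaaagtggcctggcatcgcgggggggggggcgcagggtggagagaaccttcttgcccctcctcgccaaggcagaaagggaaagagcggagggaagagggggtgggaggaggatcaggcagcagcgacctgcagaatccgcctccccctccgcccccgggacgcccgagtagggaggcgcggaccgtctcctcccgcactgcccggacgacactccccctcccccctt
Inhba: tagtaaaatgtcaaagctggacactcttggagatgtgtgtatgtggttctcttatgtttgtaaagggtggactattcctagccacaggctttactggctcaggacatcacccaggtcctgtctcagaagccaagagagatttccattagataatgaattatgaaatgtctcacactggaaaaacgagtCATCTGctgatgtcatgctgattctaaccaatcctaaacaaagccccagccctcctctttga
The Mstn stretch held 4 E-boxes, the one from -174 to -169 overlapping an AP-1 match from -170 to -164, and a TATA box from -29 to -24. Of 21562 promoters of protein-coding genes of the same length, 3.03% held at least 4 E-boxes, 64.6% at least 1, 11.9% a TATA box and 6.15% an AP-1 match. The Inhba stretch held 1 E-box, from -62 to -57, and the Inhbb stretch held no match to the 4 motifs. The cAMP response element, in 1.71% of all promoters, was in none of the 3. The Smad box CAGAC, not marked above and present in 41.2% of all promoters, had 2 matches in the Mstn stretch and 0 in the Inhbb and Inhba stretches. These matches are letters in a window and no factor's binding was measured. Whether motif numbers go with the direction of change across the 60 genes was not tested.

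Other ligands of the activin and GDF group were lower in level or changed less. Inha, the inhibin alpha subunit that pairs with a beta subunit to oppose activin, had 1.47, 1.37 and 1.34 FPKM in HDCKO and 1.04, 0.249 and 0.600 in WT (log2 change 0.81, adjusted p = 0.0442). That call was lost without WT replicate 2 (adjusted p = 0.0957) or 3 (0.107), without any HDCKO replicate (0.0905, 0.108 and 0.0629 without replicates 1, 2 and 3) and with a pseudocount of 0.1 (0.0587) or no filter (0.0866). Gdf15, a stress-induced cytokine, had 0.0833, 0.0729 and 0.248 FPKM in HDCKO and 1.03, 2.01 and 1.89 in WT, and fell by 1.73 (adjusted p = 0.0033). With a pseudocount of 0.1 its log2 change was -2.92. Gdf11, the closest relative of myostatin, overlapped between groups (1.80 to 3.11 FPKM in HDCKO and 1.32 to 1.87 in WT, log2 change 0.38, adjusted p = 0.175). It was called higher with median-of-ratios scaling (log2 change 0.80, adjusted p = 0.0137).

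The 3 TGF-beta ligands split. Tgfb1, the isoform of immune cells and injured tissue (chromosome 7, 25386390 to 25404506, plus strand), had 6.56, 14.998 and 40.0 FPKM in HDCKO and 63.2, 65.5 and 74.4 in WT. The WT libraries were alike and the HDCKO libraries were spread widely below them, without overlap. Tgfb1 fell by 2.05 (SE 0.60, adjusted p = 0.0272), a call lost with no filter (adjusted p = 0.0528), without HDCKO replicate 2 (0.0817) and with WT replicate 1 (0.0690), 2 (0.0725) or 3 (0.0809) left out. Tgfb3 had 12.5, 10.6 and 14.5 FPKM in HDCKO and 4.61, 4.12 and 6.55 in WT. Its groups did not overlap and it rose by 1.23 (SE 0.21, adjusted p = 0.0061). Tgfb2 had 2.58, 1.90 and 2.99 FPKM in HDCKO and 1.12, 0.610 and 1.39 in WT, and rose by 0.98 (adjusted p = 0.0202), but not without WT replicate 1 (adjusted p = 0.0554) or 2 (0.0553).

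The make-up of the TGF-beta ligands differed accordingly. Tgfb1 held 91.7%, 93.3% and 90.4% of the summed FPKM of the 3 ligands in the WT libraries, and 30.3%, 54.6% and 69.6% in HDCKO replicates 1, 2 and 3. In HDCKO replicate 1 Tgfb3 was the most abundant of the 3, with 57.8% of the sum. Macrophage markers (11 genes, among them Csf1r, Cd68 and Adgre1) had the same order among the HDCKO libraries, with sums of 325, 948 and 2185 FPKM, and 2456 to 3062 in WT. Of the 11, 5 fell, near the 42.6% of all genes tested. Per 1000 FPKM of these markers Tgfb1 had 20.2, 15.8 and 18.3 FPKM in HDCKO and 22.0, 26.7 and 24.3 in WT. On this scale, chosen after the values were seen, the groups did not overlap. A gene that fell more than the marker sum has a lower ratio, so no fall of Tgfb1 per macrophage can be read from it. B cell markers (0.488, 62.3 and 177 FPKM) and T and NK cell markers (0.113, 22.7 and 36.4 FPKM) had the same order among the HDCKO libraries as Tgfb1. The part of these cell types in the Tgfb1 values was not tested.

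**Figure D2:**
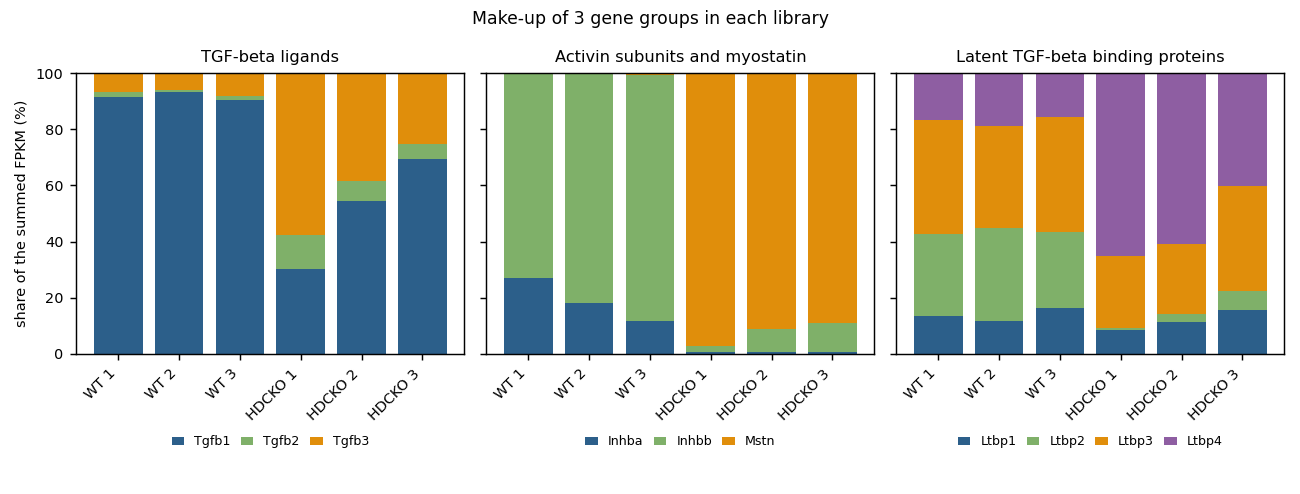
Stacked bars give the share of each gene in the summed FPKM of its group, in percent, for 3 WT and 3 HDCKO libraries. Tgfb1 (90.4% to 93.3% in WT), the activin subunit Inhbb (72.8% to 87.4% in WT) and Ltbp2 (26.95% to 33.4% in WT) held smaller shares in every HDCKO library, while Tgfb3, Mstn and Ltbp4 held larger ones.

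BMP ligands also went both ways. Bmp2, a strong osteogenic and chondrogenic ligand that inflammation induces, had 1.67, 1.78 and 2.31 FPKM in HDCKO and 10.5, 12.2 and 7.89 in WT. The groups were well apart and Bmp2 fell by 2.13 (SE 0.21, adjusted p = 9.2e-04). Gdf10, a relative of Bmp3 made by fibro-adipogenic cells of muscle, had 4.20, 4.70 and 5.23 FPKM in HDCKO and 14.2, 17.6 and 13.3 in WT, and fell by 1.57 (adjusted p = 0.0012). Bmp6, a ligand of the iron-regulating pathway in liver, had 4.94, 5.999 and 3.86 FPKM in HDCKO and 1.86, 1.82 and 3.45 in WT, and rose by 0.94 (adjusted p = 0.0262). Bmp5 had 2.67, 2.59 and 2.89 FPKM in HDCKO and 1.89, 2.13 and 1.35 in WT, with a log2 change of 0.50 at the edge of the threshold (adjusted p = 0.0489). The call of Bmp6 was lost without HDCKO replicate 1 (adjusted p = 0.0537) or 2 (0.0904), without WT replicate 1 (0.0882) or 2 (0.0849) and with no filter (0.0524), and that of Bmp5 without any of the 6 libraries (0.0602 to 0.154), with a pseudocount of 0.1 (0.0529) and with no filter (0.110).

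Bmp4 overlapped between groups, with 4.14 to 5.25 FPKM in HDCKO and 3.04 to 4.29 in WT (log2 change 0.35, adjusted p = 0.130); it was called higher with median-of-ratios scaling (0.83, adjusted p = 0.0105). Bmp3 (0.650 to 1.03 against 0.466 to 0.800 FPKM) was not called under either scaling. By level, Gdf10 and Bmp2 led the BMP ligands in every WT library, with 42.4% to 44.8% and 25.3% to 31.3% of their summed FPKM. In HDCKO, Bmp6 (17.9% to 27.1%), Bmp4 (21.8% to 24.2%) and Gdf10 (21.2% to 24.3%) held similar shares. Bmp1 and Bmp2k share the name but are no ligands of the family. Bmp1, a protease that trims procollagen and releases latent growth factors, had 10.6, 12.5 and 20.1 FPKM in HDCKO and 79.8, 46.3 and 73.5 in WT, and fell by 2.18 (SE 0.31, adjusted p = 0.0034). Bmp2k, a kinase of vesicle traffic, had 1.505, 2.25 and 4.997 FPKM in HDCKO and 10.1, 9.49 and 10.2 in WT, and fell by 1.74 (adjusted p = 0.0105).

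Of the receptors, Acvr2b was the one called higher on the deposited values. It encodes a type II receptor of myostatin, activins and GDF11 (chromosome 9, 119231103 to 119271213, plus strand). It had 3.36, 2.92 and 2.13 FPKM in HDCKO and 0.328, 0.351 and 0.327 in WT. The groups were well apart and Acvr2b rose by 1.97 (SE 0.19, adjusted p = 8.4e-04). Acvr2a, its paralog, overlapped (7.62 to 9.22 against 7.77 to 8.08 FPKM, log2 change 0.10, adjusted p = 0.532) and remained the more abundant of the pair. Acvr2b held 18.8% to 27.7% of the FPKM of the pair in HDCKO and 3.89% to 4.32% in WT. Per 1000 FPKM of fibre markers, a scale chosen after the values were seen, Acvr2b had 0.0367 to 0.0430 FPKM in HDCKO and 0.201 to 0.770 in WT. The marker sum itself was 49486 to 91492 FPKM in HDCKO and 424 to 1637 in WT. Any gene that rose less than the markers has a lower ratio, so no fall of Acvr2b per fibre can be read from it.

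The TGF-beta receptors Tgfbr2 and Tgfbr3 were lower. Tgfbr2, the type II receptor and next to Fstl1 the most abundant of the 60 genes in both groups, had 19.4, 39.3 and 53.5 FPKM in HDCKO and 94.4, 62.7 and 91.3 in WT. The groups did not overlap, and Tgfbr2 fell by 1.23 (SE 0.39, adjusted p = 0.0355). The call was lost with median-of-ratios scaling (log2 change -0.70, adjusted p = 0.0782), quantile normalization (adjusted p = 0.0695), fibre and mitochondrial genes taken out of the sum (0.0884), no filter (0.0646), HDCKO replicate 2 left out (0.0798) or WT replicate 1 (0.103), 2 (0.0568) or 3 (0.103) left out. Tgfbr3, the co-receptor betaglycan that presents TGF-beta2 and inhibin, had 12.3, 19.9 and 16.6 FPKM in HDCKO and 37.1, 27.5 and 35.8 in WT, and fell by 1.03 (adjusted p = 0.0112; -0.51 with adjusted p = 0.0850 under median-of-ratios scaling). Acvrl1, the type I receptor of endothelial cells known as ALK1, had 8.09, 11.7 and 10.4 FPKM in HDCKO and 20.5, 20.1 and 22.9 in WT, and fell by 1.05 (SE 0.17, adjusted p = 0.0052). Endothelial markers summed to 187 to 277 FPKM in HDCKO and 373 to 561 in WT, and 4 of 8 fell (beside 42.6% of all genes tested). Per 1000 FPKM of these markers Acvrl1 overlapped between groups (37.6 to 51.7 in HDCKO and 35.8 to 61.3 in WT).

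Values of the BMP receptors and the activin type I receptors lay closer to those of WT on the deposited values. Bmpr2, the BMP type II receptor, had 9.76, 10.1 and 9.04 FPKM in HDCKO and 13.8, 15.2 and 11.4 in WT (log2 change -0.46, adjusted p = 0.0407), near the median of all genes tested, and the value was 0.05 (adjusted p = 0.847) with median-of-ratios scaling. It was also not called after quantile normalization (adjusted p = 0.946), with fibre and mitochondrial genes taken out of the sum (0.658), with no filter (0.0507) or without any library other than WT replicate 3 (0.0513 to 0.126). Bmpr1a, a BMP type I receptor, was 15.5 to 16.7 FPKM in HDCKO and 13.3 to 14.9 in WT (log2 change 0.17, adjusted p = 0.256), and Acvr1b, the activin type I receptor, 13.5 to 14.974 and 12.049 to 14.9 (0.04, adjusted p = 0.817). Both of them and Acvr2a were called higher with median-of-ratios scaling (log2 changes 0.69, 0.55 and 0.60, adjusted p = 0.0332, 0.0378 and 0.0311). Acvr1, a BMP type I receptor, did not overlap (6.12 to 7.56 against 7.92 to 10.9 FPKM) yet missed the threshold (log2 change -0.47, adjusted p = 0.0520; 0.03 with median-of-ratios scaling), and passed without HDCKO replicate 3 (adjusted p = 0.0256) or with the filter at 1 FPKM (0.0491). Tgfbr1, the TGF-beta type I receptor, overlapped (log2 change -0.33, adjusted p = 0.283; 0.18 with median-of-ratios scaling).

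**Figure D3:**
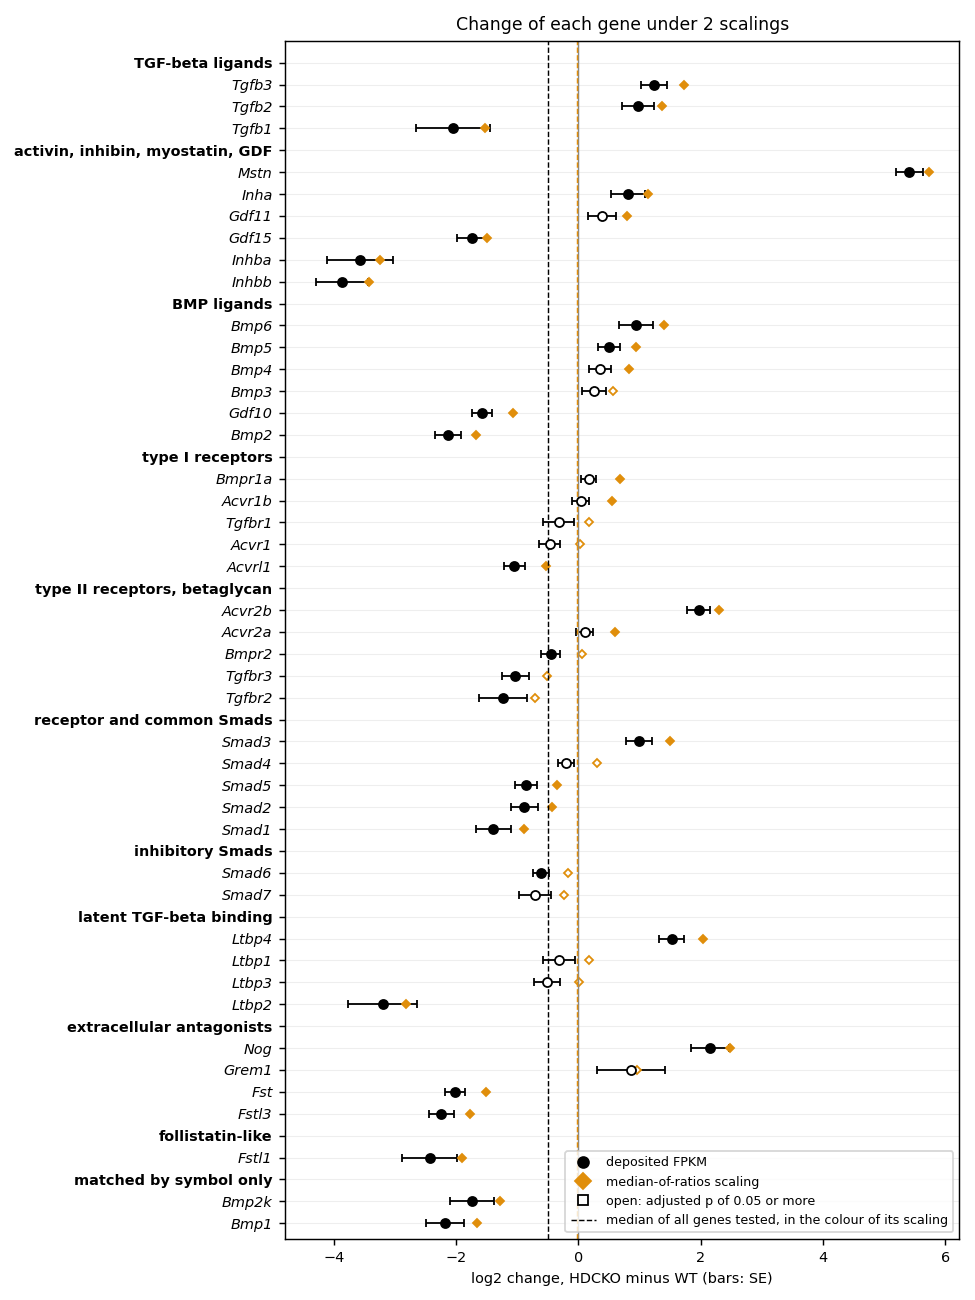
Points give the log2 change of 43 of the 44 genes tested, HDCKO minus WT, with black circles and SE bars for the deposited FPKM and orange diamonds for median-of-ratios scaling; filled symbols passed at an adjusted p under 0.05, and dashed lines mark the median of all genes tested (-0.50 and -0.03). Mstn (5.42) and Inhbb (-3.87) are at the ends, and the receptors Acvr1, Bmpr2 and Tgfbr1 sit on either side of 0 depending on the scaling.

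Among the Smads, Smad3 was the one called higher on the deposited values. Smad3 had 22.6, 14.2 and 21.7 FPKM in HDCKO and 9.68, 8.60 and 9.95 in WT. The groups did not overlap and Smad3 rose by 0.99 (SE 0.21, adjusted p = 0.0109). Smad2, its partner in the TGF-beta and activin branch, had 1.56, 1.82 and 2.94 FPKM in HDCKO and 4.02, 4.23 and 4.32 in WT, and fell by 0.88 (adjusted p = 0.0170). Smad3 held 88.1% to 93.6% of the FPKM of the pair in HDCKO and 67.0% to 70.7% in WT. The call of Smad2 was lost with fibre and mitochondrial genes taken out of the sum (adjusted p = 0.0507), and with HDCKO replicate 2 (0.0647) or WT replicate 1 (0.0541), 2 (0.0558) or 3 (0.0608) left out.

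The receptor Smads of the BMP branch were lower. Smad1 had 6.08, 5.95 and 11.7 FPKM in HDCKO and 24.5, 20.3 and 17.5 in WT, without overlap, and fell by 1.39 (SE 0.29, adjusted p = 0.0103). Smad5 had 6.59, 7.69 and 10.2 FPKM in HDCKO and 15.6, 14.8 and 14.6 in WT, and fell by 0.86 (adjusted p = 0.0110). Smad9 was under the filter in both groups (means 0.0690 and 0.190 FPKM). The common partner Smad4 was 12.4 to 14.1 FPKM in HDCKO and 14.7 to 16.9 in WT (log2 change -0.21, adjusted p = 0.213; 0.31 with median-of-ratios scaling). Smad6, an inhibitory Smad that BMPs induce, had 1.99, 1.78 and 1.89 FPKM in HDCKO and 3.08, 2.98 and 3.41 in WT, and fell by 0.61 (adjusted p = 0.0126). That value was -0.17 (adjusted p = 0.469) with median-of-ratios scaling and -0.28 (adjusted p = 0.346) after quantile normalization, and the call was also lost without HDCKO replicate 2 (0.0553) or WT replicate 1 (0.0520) or 3 (0.0577). Smad7, which both branches induce, had 1.96, 3.52 and 4.12 FPKM in HDCKO and 5.72, 5.22 and 5.07 in WT and missed the threshold (log2 change -0.71, adjusted p = 0.0521). It passed without HDCKO replicate 3 (adjusted p = 0.0175) and with a pseudocount of 1 (0.0483).

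The latent binding proteins changed in make-up while their sum overlapped between groups. Ltbp2, a matrix protein that unlike its relatives does not bind latent TGF-beta, had 0.227, 1.25 and 3.26 FPKM in HDCKO and 15.7, 15.4 and 13.9 in WT (chromosome 12, 84829986 to 84923306, minus strand). The HDCKO libraries were all far lower and differed widely among themselves, and Ltbp2 fell by 3.20 (SE 0.56, adjusted p = 0.0063). Ltbp4, a partner of elastic fibres and of latent TGF-beta1 known to modify muscular dystrophy, had 31.5, 27.8 and 19.3 FPKM in HDCKO and 8.91, 8.75 and 8.15 in WT (chromosome 7, 27004086 to 27037117, minus strand). It rose by 1.53 (SE 0.21, adjusted p = 0.0027). Ltbp1 (4.17 to 7.45 against 5.37 to 8.54 FPKM) and Ltbp3 (11.4 to 17.991 against 16.6 to 21.8 FPKM) overlapped and were not called (log2 changes -0.31 and -0.51, adjusted p = 0.321 and 0.0810; 0.17 and 0.00 with median-of-ratios scaling). Ltbp3 passed without HDCKO replicate 3 (adjusted p = 0.0099). The 4 genes summed to 45.7 to 48.4 FPKM in HDCKO and 46.1 to 53.6 in WT. Within that sum Ltbp4 held 40.2% to 65.2% in HDCKO and 15.7% to 19.0% in WT, and Ltbp2 0.469% to 6.80% and 26.95% to 33.4%.

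Of the antagonists, Fst and Fstl3 fell and Nog rose. Fst, which encodes follistatin and binds activins and myostatin, had 5.65, 6.37 and 7.10 FPKM in HDCKO and 29.5, 30.2 and 22.8 in WT. The groups were well apart and Fst fell by 2.02 (SE 0.17, adjusted p = 5.7e-04). Fstl3, a follistatin relative with the same ligands, had 2.19, 2.12 and 1.78 FPKM in HDCKO and 14.1, 11.966 and 8.88 in WT, and fell by 2.24 (SE 0.20, adjusted p = 6.9e-04). Nog, which encodes noggin, a trap for BMPs, had 3.92, 2.75 and 3.44 FPKM in HDCKO and 0.847, 0.154 and 0.224 in WT. It rose by 2.16 (SE 0.31, adjusted p = 0.0034). Grem1 was listed at 0 in HDCKO replicate 1 and WT replicate 3 and ranged up to 1.49 FPKM (log2 change 0.86, adjusted p = 0.215); without HDCKO replicate 1 it was called higher (1.48, adjusted p = 0.0125).

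Fstl1, a secreted follistatin-like glycoprotein made by fibroblasts, was the most abundant of the 60 genes in both groups. It had 52.1, 76.0 and 159 FPKM in HDCKO and 506, 329 and 601 in WT, without overlap, and fell by 2.43 (SE 0.45, adjusted p = 0.0074). Fibroblast markers summed to 1218 to 1920 FPKM in HDCKO and 2457 to 4650 in WT, and 3 of 8 fell (beside 42.6% of all genes tested). Per 1000 FPKM of these markers, Fstl1 (42.8 to 82.7 against 109 to 150), Bmp1 (8.43 to 10.5 against 17.2 to 18.9) and Ltbp2 (0.186 to 1.70 against 3.38 to 6.26) were each lower in every HDCKO library than in any WT library. Any gene that fell more than the marker sum has a lower ratio, so no fall per fibroblast can be read from it. These marker sums were set beside the genes after their values were seen, and the part of the cell types in the changes was not tested.

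**Figure D4:**
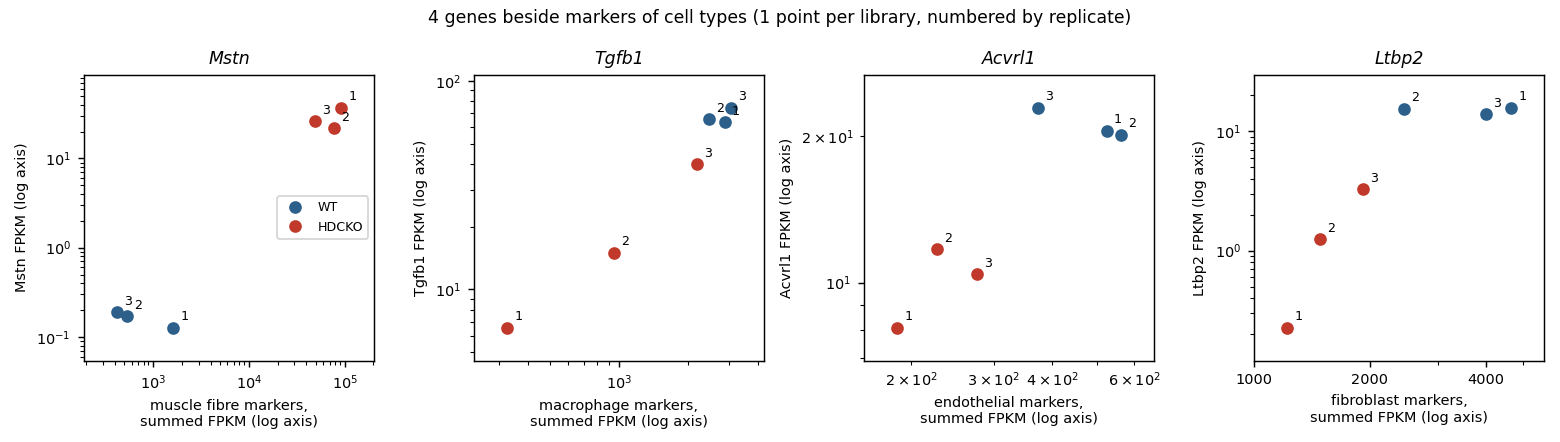
Each point is 1 library, numbered by replicate, with the summed FPKM of a marker list on the horizontal log axis and the FPKM of Mstn, Tgfb1, Acvrl1 or Ltbp2 on the vertical log axis, WT in blue and HDCKO in red. For Tgfb1 and Ltbp2 the HDCKO libraries include replicate 1 as the lowest and replicate 3 as the nearest to WT, and for Mstn the groups form separate clusters, so no correlation was computed.

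The other 16 genes had means of 0.000811 to 0.447 FPKM over the 6 libraries and were not tested. They were the ligands Bmp7, Bmp8a, Bmp8b, Bmp10, Bmp15, Gdf2, Gdf3, Gdf5, Gdf6, Gdf7 and Gdf9, the receptors Acvr1c and Bmpr1b, and Smad9, Fstl4 and Fstl5. The highest value in any library was 0.787 FPKM, for Bmpr1b in HDCKO replicate 1. Gdf5 and Gdf6, ligands of joint and tendon development, were higher in every HDCKO library. Gdf5 had 0.0455 to 0.356 FPKM in HDCKO and 0.0120 to 0.0140 in WT. Its values rest on about 4, 3 and 31 fragments in HDCKO and about 1 in each WT library. Gdf6 had 0.123 to 0.241 FPKM in HDCKO and 0.0443 to 0.0840 in WT, from about 15, 14 and 32 fragments against 5, 8 and 11. Bmp8a (0.0705 to 0.145 against 0.303 to 0.561 FPKM) and Gdf2, listed at 0 in HDCKO and at 1 to 2 estimated fragments in WT, were lower. Bmp8a and Bmp8b are close copies of each other, and reads may have been split between them.

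The spread among HDCKO mice followed that of all genes only in part. For 14 of the 20 genes called lower (70.0%), HDCKO replicate 3 was the HDCKO library with the value nearest WT; the share was 91.4% over all genes called lower. Of the 10 called higher, replicate 2 was nearest WT for 6 (60.0%, beside 15.7% of all genes called higher) and replicate 3 for 4 (40.0%, beside 73.6%). Without replicate 3 the counts were 8 higher and 22 lower, where 18.6% and 55.1% of all genes tested in that fit were.

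Genes that act around these ligands were counted by list, with means given as HDCKO against WT. Over all genes tested, 17.8% rose and 42.6% fell with a median of -0.50, and with median-of-ratios scaling 26.6% rose and 26.1% fell with a median of -0.03. Of 14 genes listed around the storage, processing and activation of latent TGF-beta, not all of them activators, 13 fell and 1 rose. Their median log2 change was -2.13. The activator Thbs1 (thrombospondin 1) had 13.9, 11.5 and 37.4 FPKM in HDCKO and 333, 670 and 235 in WT (-4.33, adjusted p = 0.0025). Lrrc32, the surface anchor of latent TGF-beta on regulatory T cells and endothelium (4.49 against 27.2 FPKM, -2.45), the proprotein convertase Furin (13.8 against 55.7 FPKM, -2.05) and Tll1, a relative of Bmp1 (-1.66), fell as well. Itgb6, the integrin subunit of an epithelial activator of TGF-beta, was the member that rose, with 5.10, 4.59 and 3.91 FPKM in HDCKO and 0.217, 0.0738 and 0.241 in WT (2.90, adjusted p = 2.4e-04). Its WT level was under the filter, so it was tested only through its HDCKO level. With median-of-ratios scaling 12 of the 14 fell and 1 rose. All 9 neutrophil markers fell (median log2 change -5.91). Of the macrophage markers 5 of 11 fell and of the fibroblast markers 3 of 8, near the 42.6% of all genes tested. The part of these cell types in this list was not tested.

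Of 15 target genes of TGF-beta, 10 fell (beside 42.6% of all genes tested) and 0 rose, with a median of -1.26. With median-of-ratios scaling 8 fell and 0 rose, with a median of -0.75. Timp1, an inhibitor of matrix metalloproteases, had 2.94, 7.39 and 35.0 FPKM in HDCKO and 761, 779 and 431 in WT (-6.01, adjusted p = 0.0030). Tgfbi (50.2 against 335, -2.94), Ccn1 (28.7 against 128, -2.00) and Pmepa1, a feedback inhibitor (8.36 against 20.2, -1.26), fell too. Among the 5 not called were Acta2 (0.04, adjusted p = 0.875) and Tagln (-0.01, adjusted p = 0.974), named after their values were seen. The others not called had log2 changes of -0.71 to -1.35 (adjusted p = 0.0521 to 0.136). With median-of-ratios scaling Acta2 was 0.57 (adjusted p = 0.109) and Tagln 0.51 (0.289), and the others not called were -0.24 to -0.82. The lists share genes. Acta2 is also one of the mural cell markers counted below, and collagen genes among the targets are also fibroblast markers. Smad7, described above, is in this list and in that of BMP targets. The target genes also respond to other signals. Of 9 BMP target genes tested, 4 fell and 1 rose (median -0.61), near the share (42.6% lower) and median (-0.50) of all genes tested. Id3 (36.1 against 108 FPKM, -1.61, adjusted p = 0.0039), Id2 (8.99 against 45.005, -2.71, adjusted p = 0.0198), Id1 (30.2 against 56.9, -0.94, adjusted p = 0.0396) and Smad6 fell. Hey1, also a Notch target, rose (3.03 against 1.73 FPKM, 0.65, adjusted p = 0.0223). With median-of-ratios scaling 2 fell, and Id1 (-0.42, adjusted p = 0.378) and Smad6 no longer passed. Leaving out 1 library lost the call of Id1 except without HDCKO replicate 2 (adjusted p = 0.0574 to 0.118), of Id2 without HDCKO replicate 2 or any WT replicate (0.0560 to 0.0630), and of Hey1 in the same cases (0.0650 to 0.0808).

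Co-receptors of the repulsive guidance family rose. Hjv, hemojuvelin, a BMP co-receptor abundant in skeletal muscle, had 235, 173 and 140 FPKM in HDCKO and 2.23, 0.572 and 1.09 in WT (6.74, SE 0.38, adjusted p = 1.9e-04). Rgma (12.1 against 5.11 FPKM, 1.18), Rgmb (8.59 against 4.60, 0.84) and their receptor Neo1 (8.24 against 4.88, 0.71) rose, while Eng, the endothelial co-receptor endoglin (31.8 against 54.7, -0.78, adjusted p = 0.0151), and Nrp1 (-0.80), named to complete the count after its value was seen, fell. So 4 of 6 co-receptors rose (beside 17.8% of all genes tested) and 2 fell (beside 42.6%); with median-of-ratios scaling 4 rose and 0 fell (beside 26.6% and 26.1%), with Eng at -0.25 (adjusted p = 0.212). The sum of the fibre markers was 49486 to 91492 FPKM in HDCKO and 424 to 1637 in WT, and its part in the rise of Hjv was not tested. Neo1 missed the threshold without WT replicate 1 (adjusted p = 0.0542), and Eng without HDCKO replicate 2 (0.0517) or WT replicate 2 (0.0518).

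Of 12 further extracellular antagonists tested, 1 rose and 6 fell (median -0.53), near the share (42.6% lower) and median (-0.50) of all genes tested. Wfikkn2, an inhibitor of myostatin and GDF11, rose, with 1.95, 0.958 and 1.11 FPKM in HDCKO and 0.132, 0.108 and 0.0910 in WT (1.55, adjusted p = 0.0037). It too was tested only through its HDCKO level. Lefty1 (0.680 against 2.01 FPKM, -1.10, adjusted p = 0.0051), Nbl1 (-1.01, adjusted p = 0.0120), Bmper (-1.03, adjusted p = 0.0223) and Twsg1 (-0.54, adjusted p = 0.0232) fell. With median-of-ratios scaling Lefty1 remained the only one called lower, with Nbl1 at -0.49, Bmper at -0.52 and Twsg1 at -0.03. Bmper (adjusted p = 0.0734 to 0.0768 without HDCKO replicate 2, WT replicate 1 or WT replicate 3) and Twsg1 (0.0537 to 0.0855 without any library other than HDCKO replicate 3) also depended on single libraries. Among 16 intracellular regulators, 3 rose and 6 fell (median -0.37), near the shares of all genes tested (17.8% and 42.6%). With median-of-ratios scaling the balance turned, with 5 higher and 4 lower (median 0.15). Fkbp1a, which holds type I receptors inactive (96.0 against 257 FPKM, -1.43), the corepressor Tgif1 (2.23 against 12.2, -2.38) and the endosomal protein Zfyve16 (-0.99) fell. The deubiquitinase Usp15 (12.4 against 6.59, 0.86) and Zfyve9, which presents Smad2 and Smad3 to the receptor (5.05 against 2.62, 0.83), rose. Zfyve16 missed the threshold without HDCKO replicate 2 (adjusted p = 0.0546) or WT replicate 1 (0.0512).

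**Figure D5:**
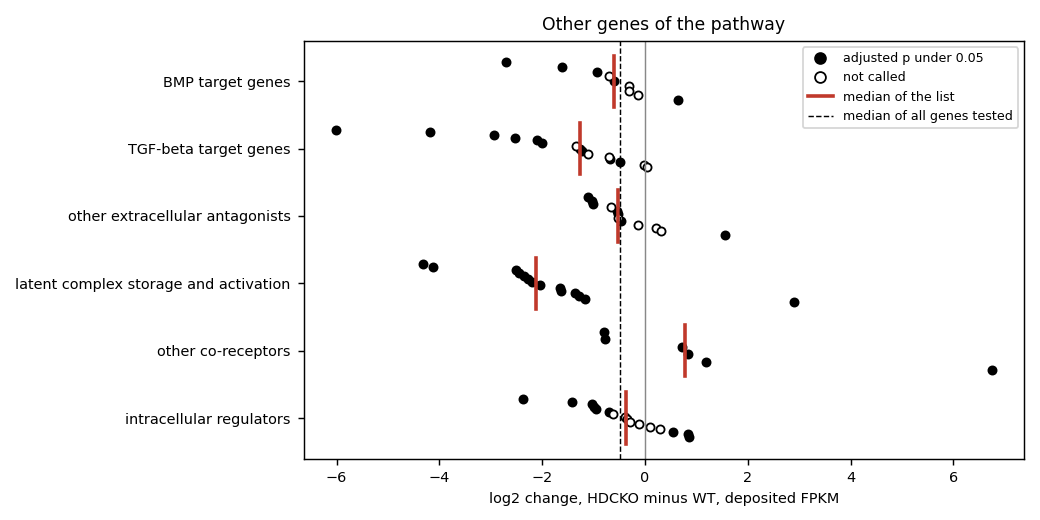
Each dot is 1 gene of a list, placed by its log2 change on the deposited FPKM (HDCKO minus WT); filled dots passed at an adjusted p under 0.05, red bars are list medians and the dashed line is the median of all genes tested (-0.50). The list of latent complex storage and activation has its median at -2.13, and the co-receptor list is the one list with a median above 0 (0.78).

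The remaining marker lists were, in summed FPKM, 32.5 to 69.9 in HDCKO and 2462 to 14467 in WT for neutrophils (9 of 9 fell), 273 to 322 and 166 to 194 for mural cells (2 rose and 1 fell of 7) and 95.2 to 193 and 10.1 to 37.9997 for satellite cells and myoblasts (2 of 7 rose). Tenocyte markers were 298 to 481 and 195 to 299 (3 of 5 rose), Schwann cell markers 133 to 186 and 30.3 to 99.96 (2 of 4 rose) and mast cell markers 25.1 to 46.6 and 28.6 to 54.2 (2 of 5 fell). Adipocyte markers were 561 to 2308 and 1109 to 2387 (0 of 5 called) and T and NK cell markers 0.113 to 36.4 and 0.971 to 1.44 (0 of 5 called); of 4 B cell markers 0 were called. Over all genes tested, 17.8% rose and 42.6% fell. No list had a marker at 0 in all 6 libraries.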

How the data were processed

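RNA was sequenced from hind limb muscle of 3 HDCKO and 3 WT mice, 1 library per mouse, grouped by sample title. Per the submitters' processing notes, FastQC 0.11.9, HISAT2 2.1.0 with HTSeq 0.11.2, STAR 2.7.11b and GRCm39 were used, and the notes also name DESeq2 1.22.2. Which aligner led to the values, the use of strand and the handling of shared reads are not stated in the labels, so antisense and overlapping genes cannot be told apart. The deposited values are FPKM, calculated by the authors from a count matrix, per the series' design text.

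The test was limma-trend (limma 3.58.1, R 4.3.3) on log2(FPKM + 0.5), for the 13288 genes whose mean reached 0.5 FPKM, HDCKO against WT with no covariate, Benjamini-Hochberg adjusted over all of them with a threshold of 0.05. It was tested on simulated data in which few genes changed and no library was shifted in scale. In the data 60.4% of all genes tested were called, a setting which that simulation does not cover. All 60 genes matched GENCODE M39 by symbol. Depth was estimated from the step of low FPKM values and the annotated exon length, and entered no test; such fragment numbers cover counting error only. The members, roles and gene lists were chosen with earlier results of these data known.

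Every member could be named, but some genes counted here are not reported by name. Values per library were due for up to 6 members of each role with the smallest p and the most abundant one, and up to 5 genes of each further list were named by smallest p; other names are marked where they appear. Alternatives were other pseudocounts (0.1 and 1), filters, scalings, sample weights, a replicate block and leaving out each library.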

Additional observations from a re-analysis of the deposited data

How the results depend on the processing

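With fibre and mitochondrial genes kept from scaling, 3374 of all genes (25.4%) were lower and 26 of the other pathway genes, against 5658 (42.6%) and 40. With median-of-ratios scaling 3457 of all genes (26.1%) were lower. Leaving out 1 library gave 2507 to 7288 genes lower (18.9% to 55.1% of all genes tested) and 21 to 44 other pathway genes lower. Of the 60 genes, 6 to 8 were higher (10 with all libraries). Beside them 13.2% to 18.6% of all genes tested were higher (17.8% with all libraries). Each of these fits had fewer samples. The lows of all genes were 2507 without HDCKO replicate 2 and 2978, 3111 and 2799 without WT replicates 1, 2 and 3. Without WT replicate 2, 6 of the 60 genes were higher (beside 14.9% of all genes tested in that fit). Small changes reversed. With median-of-ratios scaling Acvr1 was 0.0301, Bmpr2 0.0546, Ltbp1 0.17, Ltbp3 0.0029, Smad4 0.31 and Tgfbr1 0.18. After quantile normalization Ltbp1 was 0.11, Smad4 0.25 and Tgfbr1 0.14, and with fibre and mitochondrial genes kept from scaling they were 0.0427, 0.17 and 0.0441. With sample weights, whose estimate did not converge, Acvr2a was -0.0572. With 1 library left out Acvr1b ranged from -0.0526 to 0.10. Quantile normalization gave 15 higher and 17 lower of the 60 genes (beside 23.6% and 30.3% of all genes tested). The split of all calls moved with scaling, from 29.5% higher as deposited to 43.8% after quantile normalization and 50.5% with median-of-ratios scaling. For the changes named here beyond the fewer samples, the cause was not tested. The main test did not pair mice by replicate number. Deviations from the group means correlated at 0.122, 0.0666 and 0.138 between equally numbered libraries. Between the other libraries of the 2 groups they correlated at -0.182 to 0.112, and HDCKO replicate 2 correlated best with WT replicate 1. Whether the numbers pair the mice cannot be told from these values. With a replicate block 7 of the 60 genes were higher and 19 lower (beside 15.7% and 38.3% of all genes tested). Bmp5, Bmp6, Inha and Bmpr2 were then no longer called. Depth limits the 16 untested genes, at 0.447 FPKM or less on average.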

Other observations

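The deposited annotation assigns 108 genes to the KEGG TGF-beta signalling pathway, 38 of them among the 60 genes described above; this set was looked up after the data were seen and shares genes such as Hjv with the lists above. Of the other 70, 60 were tested, 10 rose (beside 17.8% of all genes tested) and 33 fell (beside 42.6%), with a median log2 change of -0.69. With median-of-ratios scaling 12 rose and 20 fell, with a median of -0.22, where 26.6% and 26.1% of all genes tested did. Fmod, the collagen-binding proteoglycan fibromodulin, rose from 29.9 to 208 FPKM (2.72, adjusted p = 0.0019). It is also one of the tenocyte markers counted above. Amhr2, the type II receptor of anti-Mullerian hormone (1.81 against 0.171 FPKM, 1.71, adjusted p = 0.0070), tested only through its HDCKO level, rose as well, and so did the transferrin receptor Tfrc (28.4 against 11.7 FPKM, 1.21, adjusted p = 0.0136). Among those that fell were Myc (8.51 against 36.5 FPKM, -2.23, adjusted p = 0.0089), the inflammatory cytokine Tnf (0.566 against 5.22 FPKM, -2.65, adjusted p = 0.0071), the small GTPase Rhoa (104 against 272 FPKM, -1.45, adjusted p = 0.0081) and its kinase Rock1 (8.11 against 19.3 FPKM, -1.25, adjusted p = 0.0134).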
